A study of Mus musculus with 2 samples.

Results

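The genes of the RAS, RAF, MEK and ERK proteins were examined in chromatin immunoprecipitation sequencing (ChIP-seq) libraries of mouse fibroblasts, in which immunoprecipitated DNA is sequenced and counted as tags. The group consists of 7 named protein-coding genes out of the 22350 annotated on the autosomes and X in build NCBIM37 (mm9): Hras1, Nras, Araf, Braf, Map2k1, Map2k2 and Mapk3. The members were taken by name and located in the annotation, and the choice was made with earlier results of these data known. The first library was precipitated with M2, a monoclonal antibody against the FLAG peptide tag, and the second with normal mouse IgG, the background control. Both came from the same cells, a 3T3 line without its own cyclin D1 gene (Ccnd1-/-) that stably carries FLAG-tagged cyclin D1 on the retroviral vector MSCV. The tagged protein is therefore expressed from the vector and not from the Ccnd1 promoter, and the labels do not say whether the line is a clone. Anti-FLAG chromatin of cells without the tag was not analysed here.

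RAS proteins are small GTPases that switch on when growth factor receptors are engaged. Active RAS recruits RAF kinases, RAF phosphorylates the MEK kinases, and MEK phosphorylates ERK, which enters the nucleus and acts on transcription factors. In fibroblasts sustained ERK activity is a known inducer of the Ccnd1 gene, so cyclin D1 is a classical output of this cascade. Here the question is the reverse one, namely whether chromatin at the genes of the cascade was recovered with tagged cyclin D1.

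The anti-FLAG library held 9259840 tags and the IgG library 9312346. Each antibody had 1 library and no replicate, so each test compares these 2 libraries and not the antibodies in general, and all intervals cover counting error only. As a check of the genotype, introns 1 to 3 of Ccnd1 held 2 anti-FLAG tags and 1 IgG tag, against 17.4 and 17.5 expected at the genome-wide means. The libraries measured DNA, so fibroblast markers could not be checked. The libraries also differed in GC coverage. Away from promoters, in windows of 500 bp with no annotated transcription start site (TSS) within 10 kb, the ratio of anti-FLAG to scaled IgG tags was 1.02 at 42 to 44% GC, 2.22 at 60 to 62% and 3.34 at 66 to 68%.

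All 7 genes had more anti-FLAG than scaled IgG tags within 1 kb of the 5' end of the gene, and 2 of them passed the test: Mapk3, the gene of the kinase ERK1, and Map2k1, the gene of the kinase MEK1. An excess of anti-FLAG tags was the usual state, found at 76.2% of all 22350 protein-coding promoters. Of the 7 promoters, 5 held the 20 tags of both libraries together that the test required, and Hras1 and Araf did not. The test was the 2-sided exact binomial test of the tags in the 2 libraries, adjusted by Benjamini-Hochberg over all 10952 promoters with enough tags. Over all of these, 29.5% were higher in anti-FLAG, so 2 of 5 is a share near the background. A log2 ratio of at least 1, with 1 tag added to each count, was found at 3 of the 5 tested members, against 44.3% of all tested promoters. The median log2 ratio was 1.01 over the 7 genes, against 0.59 over all protein-coding promoters. It was also 1.01 over the 5 tested members, against 0.88 over all tested promoters. Of the 7 promoters 1, that of Mapk3, overlapped a region of anti-FLAG excess, against 7.42% of all protein-coding promoters.

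**Figure D1:**
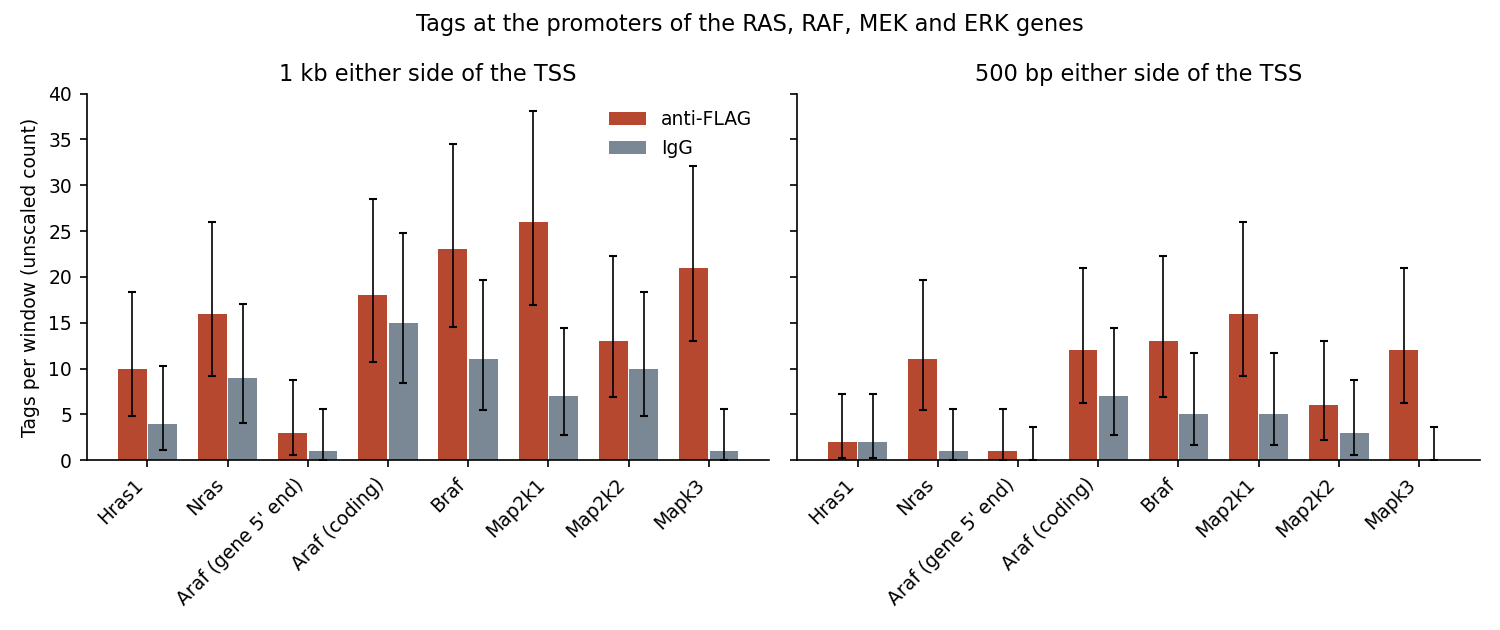
Unscaled tag counts within 1 kb (left panel) and 500 bp (right panel) of the TSS of each gene, with anti-FLAG in red and IgG in grey, and bars showing the 95% exact Poisson interval of each count. Araf is shown at the 5' end of the gene and at the start of its coding transcripts. Mapk3 stands out with 21 anti-FLAG tags and 1 IgG tag within 1 kb, and its count intervals did not overlap.

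Mapk3 (ENSMUSG00000063065.7) had the largest ratio of the group. It spans positions 133903115 to 133909333 of chromosome 7 (plus strand), and its main transcript has 9 exons. Within 1 kb of its TSS the anti-FLAG library held 21 tags and the IgG library 1 tag, a ratio of 21.1 with a 95% exact interval of 3.40 to 873 (adjusted exact binomial p = 3.56e-04). Of the anti-FLAG tags 12 lay on the plus and 9 on the minus strand. Within 500 bp the counts were 12 anti-FLAG and 0 IgG tags. With the 12 taken as exact, this was 4.02-fold above the 3 tags that a count of 0 allows. The 95% exact interval of the ratio, which also covers the counting error of the 12 tags, had a lower limit of 2.79. A further coding transcript of Mapk3 starts 996 bp downstream, with 9 anti-FLAG and 3 IgG tags within 500 bp of it.

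The anti-FLAG tags of Mapk3 stood on both sides of its TSS but not over it. The 500 bp upstream held 9 anti-FLAG and 0 IgG tags, and the first 500 bp of the gene held 3 and 0. Neither library had a tag in a span of 542 bp around the TSS, from the last tag 152 bp upstream to the first 391 bp downstream, and this span was 73.1% GC. Whether tags can be mapped there was not measured. The called region overlapped no annotated gene and had its centre 365 bp upstream of the TSS. Its window held 11 anti-FLAG and 0 IgG tags. This was 6.27 times the genome-wide IgG mean, the largest of the 4 IgG backgrounds used for the call (one-sided exact Poisson p = 2.44e-06). The region was no longer called with the GC correction or at a p threshold of 1e-07. Among all promoters, 12, with Mapk3 among them, had at least 21 anti-FLAG tags and at most 1 IgG tag. The 3 promoters closest to Mapk3 over its 4 counts, 2 libraries by 2 widths, were Rlim (19 anti-FLAG and 1 IgG tag within 1 kb), Scube3 (22 and 1) and Mesdc1 (17 and 1), with 11, 10 and 12 anti-FLAG and 0 IgG tags each within 500 bp.

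The MEK genes stood apart in their counts, Map2k1 with an excess of anti-FLAG tags and Map2k2, the gene of the closely related MEK2, with similar counts in both libraries. The difference between these genes was not tested, and their intervals overlap. Map2k1 (ENSMUSG00000004936.8) spans positions 64033577 to 64101438 of chromosome 9 (minus strand). Within 1 kb of its TSS lay 26 anti-FLAG and 7 IgG tags, a ratio of 3.74 (95% exact interval 1.58 to 10.2, adjusted exact binomial p = 0.00766). The excess lay on both sides of the TSS, and neither library had a tag in the 170 bp around it. The stretch from 1 kb to 500 bp upstream held 9 anti-FLAG tags and 1 IgG tag, the 500 bp next to the TSS held 10 and 4, the first 500 bp of the gene 6 and 1, and the stretch beyond 1 and 1. Its anti-FLAG tags were 13 on each strand. Map2k2 (ENSMUSG00000035027.10), at positions 80568660 to 80587442 of chromosome 10 (plus strand), had 13 anti-FLAG and 10 IgG tags (ratio 1.31, 0.530 to 3.33, adjusted exact binomial p = 0.649). Within 500 bp Map2k1 had 16 anti-FLAG and 5 IgG tags, and Map2k2 had 6 and 3. The 250 bp upstream of each are shown to set the MEK promoters side by side, from chr9:64101439-64101688 on the minus strand and chr10:80568410-80568659 on the plus strand of NCBIM37. They are written 5' to 3', and capitals mark matches on either strand to the letters GGGCGG (GC box, known to bind Sp1), CCAAT (NF-Y), TGACGTCA (the cyclic AMP response element, CRE), GCGCATGC (NRF1), CCGGAAG (ETS factors) and TTTNNCGC (E2F factors).
Map2k1: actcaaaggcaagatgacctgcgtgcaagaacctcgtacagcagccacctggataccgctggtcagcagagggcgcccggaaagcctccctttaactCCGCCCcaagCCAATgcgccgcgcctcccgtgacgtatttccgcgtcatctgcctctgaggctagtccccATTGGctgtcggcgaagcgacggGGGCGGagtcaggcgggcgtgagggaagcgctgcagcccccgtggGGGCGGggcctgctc
Map2k2: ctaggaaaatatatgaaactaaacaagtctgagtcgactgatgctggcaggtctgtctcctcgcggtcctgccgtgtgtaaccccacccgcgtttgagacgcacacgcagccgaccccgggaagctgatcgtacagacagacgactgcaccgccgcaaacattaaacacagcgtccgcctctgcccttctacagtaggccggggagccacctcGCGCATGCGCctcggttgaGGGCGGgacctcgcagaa
The Map2k1 stretch held 3 GC boxes and CCAAT letters at 2 places, and the Map2k2 stretch 1 GC box and an NRF1 match that reads on both strands, at -37 and -35, counted in bp from the TSS. Their GC contents were 66.4% and 59.6%.

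**Figure D2:**
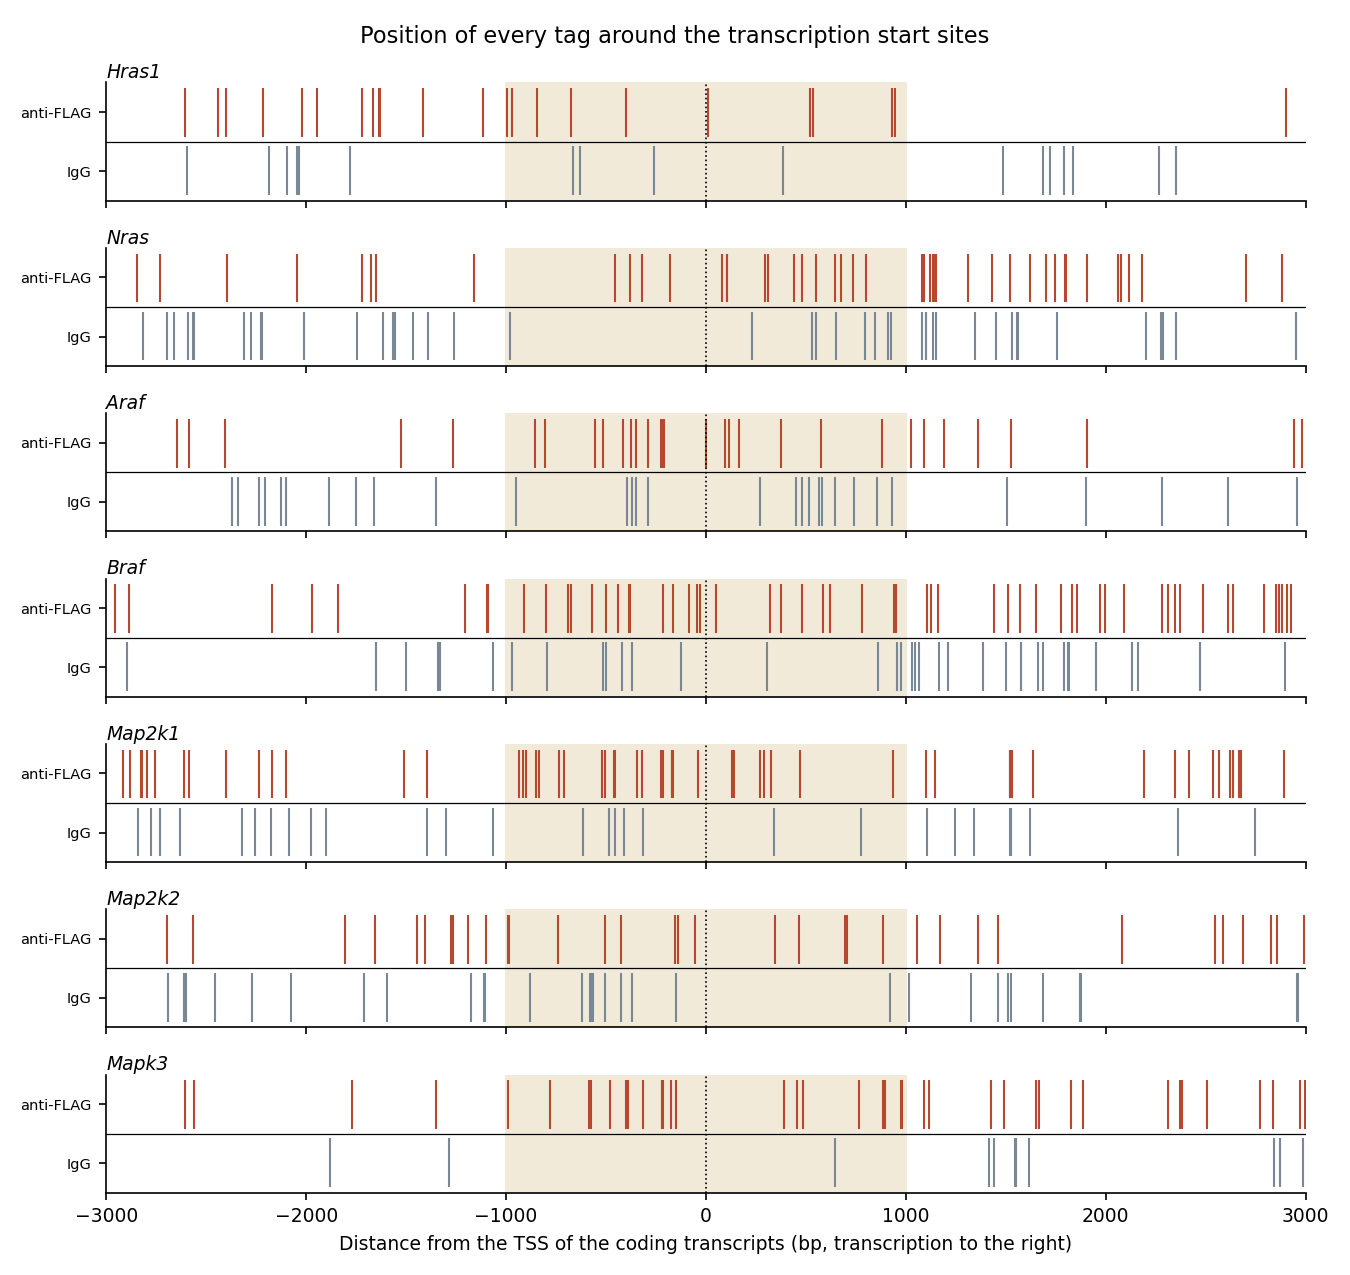
Position of each tag within 3 kb of the TSS of the coding transcripts, 1 stroke per tag after moving it 72 bp downstream, with anti-FLAG above (red) and IgG below (grey) the line of each gene, transcription to the right, and the window of 1 kb either side shaded. Mapk3 shows 21 anti-FLAG strokes and 1 IgG stroke in the shaded window, and no stroke in the 542 bp around its TSS.

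Of the RAF genes, neither passed the test. RAF kinases link RAS to MEK, and BRAF has the strongest kinase activity toward MEK. Braf (ENSMUSG00000002413.8) spans positions 39553236 to 39675462 of chromosome 6 (minus strand). Within 1 kb of its TSS lay 23 anti-FLAG and 11 IgG tags. The ratio was 2.10 (95% exact interval 0.985 to 4.78, adjusted exact binomial p = 0.0984). Tags of both libraries spread over this whole window, with 9 anti-FLAG and 4 IgG tags in the 500 bp upstream and 4 and 1 in the first 500 bp of the gene, which were 78.4% GC. The upstream sequence is shown because it is the member with the CRE, from chr6:39675463-39675712 on the minus strand.
Braf: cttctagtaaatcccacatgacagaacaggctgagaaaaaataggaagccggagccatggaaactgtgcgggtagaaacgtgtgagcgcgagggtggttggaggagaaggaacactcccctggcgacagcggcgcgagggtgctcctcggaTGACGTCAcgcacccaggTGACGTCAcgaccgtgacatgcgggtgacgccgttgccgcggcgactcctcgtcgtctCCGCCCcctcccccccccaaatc
It held the CRE letters at 2 places, -99 and -81, and 1 GC box.

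Araf (ENSMUSG00000001127.5) depended on which start was taken. The gene spans positions 20374940 to 20437645 of chromosome X (plus strand). Its annotated 5' end belongs to a single transcript of the nonsense-mediated decay class, and the coding transcripts begin 50729 bp further downstream, at position 20425669. At the 5' end of the gene there were 3 anti-FLAG tags and 1 IgG tag, too few to test. At the coding start there were 18 anti-FLAG and 15 IgG tags (ratio 1.21, 95% exact interval 0.574 to 2.57, exact binomial p = 0.707, adjusted over all promoters at their coding starts). Anti-FLAG tags outnumbered IgG tags upstream of this start, with 8 against 4 in the 500 bp before it, and were fewer from 500 bp to 1 kb downstream, with 2 against 7. Taking the coding start for every gene left 2 members higher, of 6 tested, so the count of members that passed was the same.

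The RAS genes had few tags or a narrow excess. Nras (ENSMUSG00000027852.7) spans positions 102862152 to 102871837 of chromosome 3 (plus strand). Within 500 bp of its TSS it had 11 anti-FLAG tags and 1 IgG tag, a ratio of 11.1 with an exact interval of 1.61 to 476, but these 12 tags were too few for the 20-tag minimum. Within 1 kb the counts were 16 and 9 (ratio 1.79, 0.744 to 4.59, adjusted exact binomial p = 0.270). The stretch from 500 bp to 1 kb downstream held 5 anti-FLAG and 7 IgG tags. The upstream stretch, chr3:102861902-102862151 on the plus strand, is shown because it is the least GC-rich of those printed, at 44.8% GC.
Nras: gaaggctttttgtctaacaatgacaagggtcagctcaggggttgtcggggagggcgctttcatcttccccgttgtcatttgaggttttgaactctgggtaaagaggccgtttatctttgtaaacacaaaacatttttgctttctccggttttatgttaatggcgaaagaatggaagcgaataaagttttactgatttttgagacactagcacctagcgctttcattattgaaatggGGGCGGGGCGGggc
GC boxes were found at 2 overlapping places, -14 and -9. With at least 10 tags as the minimum, 4 members could be tested within 500 bp and 3 were higher, against 33.3% of 10393 promoters. They were Nras (adjusted exact binomial p = 0.0172), Mapk3 (0.00345) and Map2k1 (0.0497, just under the threshold of 0.05). With the GC correction none of the 3 passed at this width and minimum (adjusted exact binomial p = 0.125 for Nras, 0.201 for Mapk3 and 0.803 for Map2k1). With the 20-tag minimum Map2k1 was the single member tested at this width, and it was higher (adjusted exact binomial p = 0.0300), against 62.6% of the 3013 promoters tested.

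Hras1 (ENSMUSG00000025499.11), at positions 148375004 to 148379904 of chromosome 7 (minus strand), was sparsely covered by both libraries. Within 1 kb there were 10 anti-FLAG and 4 IgG tags (ratio 2.51, 95% exact interval 0.725 to 11.0) and 2 of each within 500 bp, and was not tested. Its window was the most GC-rich of the group at 64.3%. The TSS of Lrrc56, transcribed in the opposite direction, lies 152 bp upstream, so these tags cannot be assigned to 1 of the genes. No other member had a further annotated gene start within 2 kb. Inside the gene, around the start of a processed transcript 2028 bp downstream, there were 0 anti-FLAG and 6 IgG tags within 500 bp. A count of 0 allows up to 3 tags.

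The widths of the intervals limited any order among the genes. By ratio within 1 kb the order was Mapk3, Map2k1, Hras1, Braf, Nras, Map2k2 and Araf at its coding start. The interval of Mapk3 (3.40 to 873) lay above those of Map2k2 (0.530 to 3.33) and of Araf (0.574 to 2.57), and overlapped those of the other 4 genes. Each neighbouring pair in this order had overlapping intervals.

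GC content moved with these ratios over all promoters, so each gene was also set beside promoters of its own GC content. Among tested promoters within 2 GC points of Mapk3 (58.2% GC), 99.7% of 1941 had a lower ratio. The same share was 85.4% for Map2k1 (56.4% GC), 65.0% for Nras (45.4%), 49.5% for Braf (55.2%), 33.4% for Hras1, 25.5% for Araf at the coding start (46.7%) and 10.5% for Map2k2 (59.6%). By these ranks, Mapk3 and Map2k1 stood high and Map2k2 low among promoters of like GC content. The intervals of Map2k1 (1.58 to 10.2) and Map2k2 (0.530 to 3.33) included the median of such promoters, at log2 ratios of 1.07 and 1.15.

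**Figure D3:**
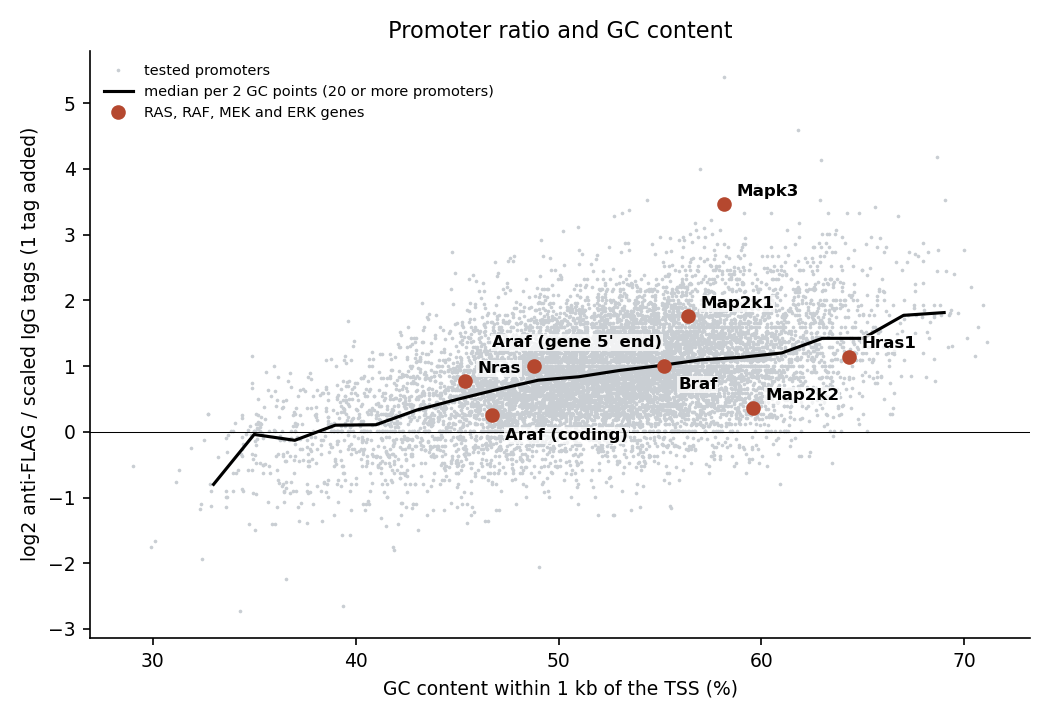
Log2 ratio of anti-FLAG to scaled IgG tags within 1 kb of the TSS against the GC content of the same window, for all tested promoters (grey points), their median in steps of 2 GC points (line, steps with 20 or more promoters) and the 7 genes (red). Hras1 and Araf at the gene's 5' end were below the 20-tag minimum. Mapk3 lies at 58.2% GC and a log2 ratio of 3.46, where promoters of like GC had a median of 1.11.

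With a correction for GC most promoters no longer passed. The expected ratio of each promoter was taken from distant windows of the same GC content, as the summed tags of its 500-bp windows. Mapk3 then kept a log2 ratio of 3.07 and passed (adjusted exact binomial p = 0.0315), while Map2k1 had 1.32 and did not pass (0.157). With this correction 3.13% of tested promoters were higher. When the mean of the window ratios was used instead, 0.338% were higher and 0 members passed, with Mapk3 at 2.86 (adjusted exact binomial p = 0.149). The call at Mapk3 therefore depended on how the GC correction was made. Map2k2 had log2 ratios of -0.27 and -0.69 under the corrections, below its value of 0.36 without one.

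**Figure D4:**
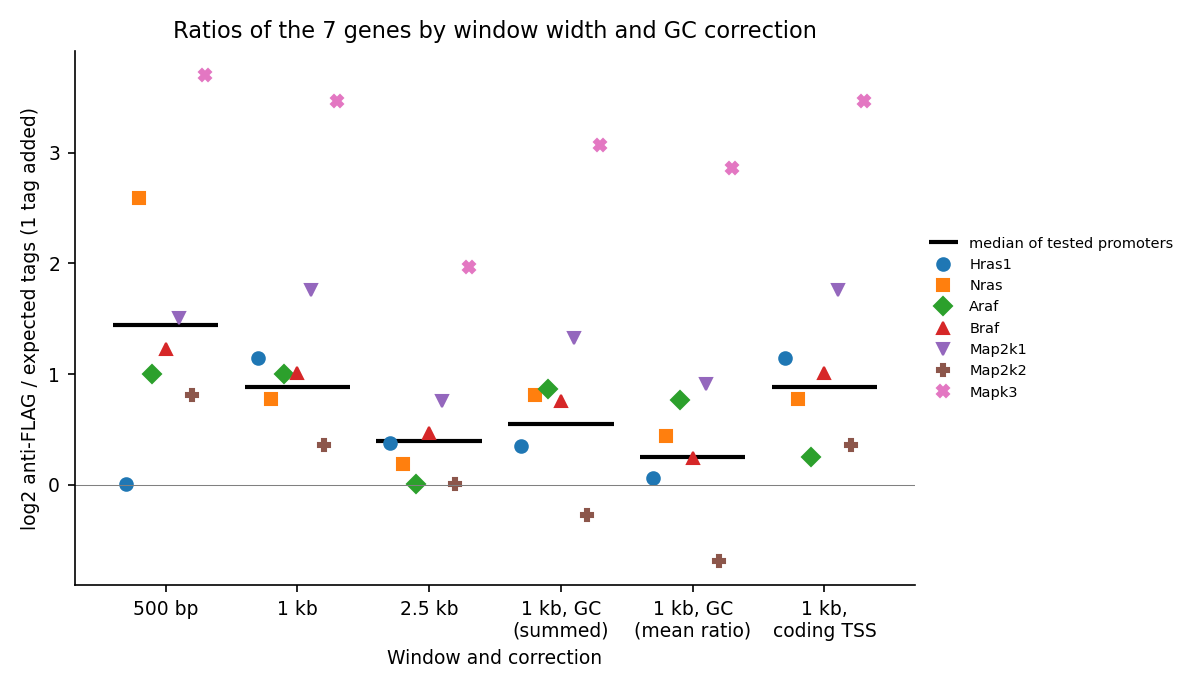
Log2 ratio of anti-FLAG to expected tags (1 tag added) for the 7 genes under 3 window widths, both GC corrections and the coding start, with a black line at the median of all promoters tested in that setting. Mapk3 is the highest point in each column, from 1.97 with 2.5 kb either side to 3.70 with 500 bp.

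Over the gene bodies the interval of the ratio lay above 1 for Mapk3, Map2k2 and Map2k1 and included 1 for the other 4 genes. Past the first 1 kb of the coding span, Mapk3 had 25 anti-FLAG and 11 IgG tags, a ratio of 2.29 (95% exact interval 1.08 to 5.15). Map2k2 had 81 and 49 (1.66, 1.15 to 2.42) and Map2k1 had 357 and 303 (1.19, 1.01 to 1.39). Each of these intervals included the ratio of the 100 kb either side of the gene's coding start without the inner 5 kb. Those surroundings hold the part of the gene itself past 5 kb, so both ratios share tags. For Map2k1, which spans 67.9 kb, this is most of the gene, and the overlap of values cannot set the body apart from its surroundings. That ratio was 1.39 for Mapk3, 1.89 for Map2k2 and 1.24 for Map2k1. The value was near even for Braf, with 751 and 788 tags (0.959, 0.866 to 1.06). Nras had 39 and 53 tags (0.740, 0.477 to 1.14) and Araf 39 and 43 (0.912, 0.576 to 1.44). Hras1 had 9 and 10 (0.905, 0.325 to 2.48). The intervals of Nras, Araf and Hras1 were wider than that of Braf. Split by exons and introns over the whole coding span, the interval left out 1 for the introns of 4 genes. It lay above 1 for Mapk3 (28 anti-FLAG and 10 IgG tags, ratio 2.82, 1.33 to 6.50), Map2k2 (78 and 45, 1.74, 1.19 to 2.58) and Map2k1 (349 and 299, 1.17, 1.003 to 1.37). It lay below 1 for Araf (22 and 39, 0.567, 0.320 to 0.981), whose exons had 23 and 14 tags (1.65, 0.815 to 3.47). For the exons of every gene of the group the interval included 1. How often the interval leaves out 1 over all gene bodies was not computed, and no GC correction was made here.

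The surroundings of the genes, which include any part of the gene itself past the inner 5 kb, also differed in their ratios. Braf spans 122 kb, so its downstream side lies wholly within the gene. In the 100 kb either side of the coding start, leaving out the inner 5 kb, the ratio was 1.89 around Map2k2 (966 anti-FLAG and 515 IgG tags, 53.5% GC), 1.39 around Mapk3 (797 and 578, 49.0% GC), 1.25 around Hras1, 1.24 around Map2k1, 1.06 around Araf, 0.986 around Braf (1016 and 1036, 40.4% GC) and 0.953 around Nras. The promoter ratio of Map2k2, 1.31, was below the ratio of its surroundings, but its interval (0.530 to 3.33) contained that of the surroundings (1.69 to 2.10). That of Mapk3 was above the ratio of its surroundings, and the intervals did not overlap (3.40 to 873 against 1.24 to 1.55). That of Map2k1 was also above, with an interval of 1.58 to 10.2 against 1.13 to 1.36. The promoter windows of Mapk3 and Map2k1 were more GC-rich, at 58.2% and 56.4%, than their surroundings, at 49.0% and 44.2%. The part of GC content in these ratios, regional or at the promoter, was not tested.

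Upstream sequences were searched for 6 genes, all but Mapk3, and most held GC boxes. The letters GGGCGG were found in the 250 bp upstream of the coding start in 5 of these 6, all but Araf, against 40.2% of 22345 promoters. CCAAT was found in 3 of the 6 (Hras1, Araf and Map2k1), against 35.0%. The letters of the CRE (Braf) and NRF1 (Map2k2) motifs occurred in 1 gene each, against 1.94% and 2.77% of promoters. TATAAA, the AP-1 letters TGANTCA, the ETS letters CCGGAAG and the E2F letters TTTNNCGC were in none of the 6, against 12.3%, 5.88%, 8.34% and 5.00%. These matches describe the letters in this window alone, and the shares over all promoters were not matched for GC content.

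The other genes of the pathway were considered as 7 lists of 82 genes, of which 81 were found and 59 could be tested. Anti-FLAG tags were higher at 19 of the 59 and lower at 0, a share near the 29.5% of all tested promoters, and the median log2 ratio was 1.01 over those tested. Among feedback inhibitors, the phosphatases and Sprouty and Spred proteins that ERK signalling induces and that damp it, 6 of 6 tested promoters were higher and 5 of 10 overlapped a region, against 7.42% of all protein-coding promoters. Like the other lists, this one was chosen with earlier results of these data known, so its counts are a description. The median log2 ratio over all 10 feedback inhibitors was 1.81, against 0.59 over all protein-coding promoters. Spred2, an inhibitor of RAF activation, had 27 anti-FLAG and 4 IgG tags (log2 ratio 2.49, adjusted exact binomial p = 8.38e-04), and Dusp6, the ERK phosphatase of the cytoplasm, named after its values were seen, had 35 and 10 (1.72, p = 0.00276 by the same adjusted exact test). With the GC correction none of these 6 passed, and Spred2 had an adjusted exact binomial p of 0.0615. Over the genome 3997 regions were called with this correction, against 5964 without, and the overlap of these genes with the former is not given here.

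The other lists had lower medians, between 0.51 and 1.01 over all their genes, where all protein-coding promoters had 0.59. Of growth factor receptors and adaptors 2 of 12 were higher, led by Crk, an SH2 and SH3 adaptor, with 30 anti-FLAG and 7 IgG tags. Of RAS GTPase-activating proteins 1 of 5 was higher, Rasal2, with 17 and 5. Of the relatives of RAS 2 of 8 were higher, led by Rras with 31 and 8. Of scaffolds and chaperones 3 of 8 were higher, among them Shoc2, a scaffold that promotes RAF activation, with 29 and 11. Of ERK substrates 4 of 11 were higher, led by Myc, a transcription factor stabilised by ERK, with 31 and 11. Of other MAP kinase cascades 1 of 9 was higher, Map3k7, the gene of the kinase TAK1, with 16 and 4. With either GC correction 0 of these 59 promoters passed.

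**Figure D5:**
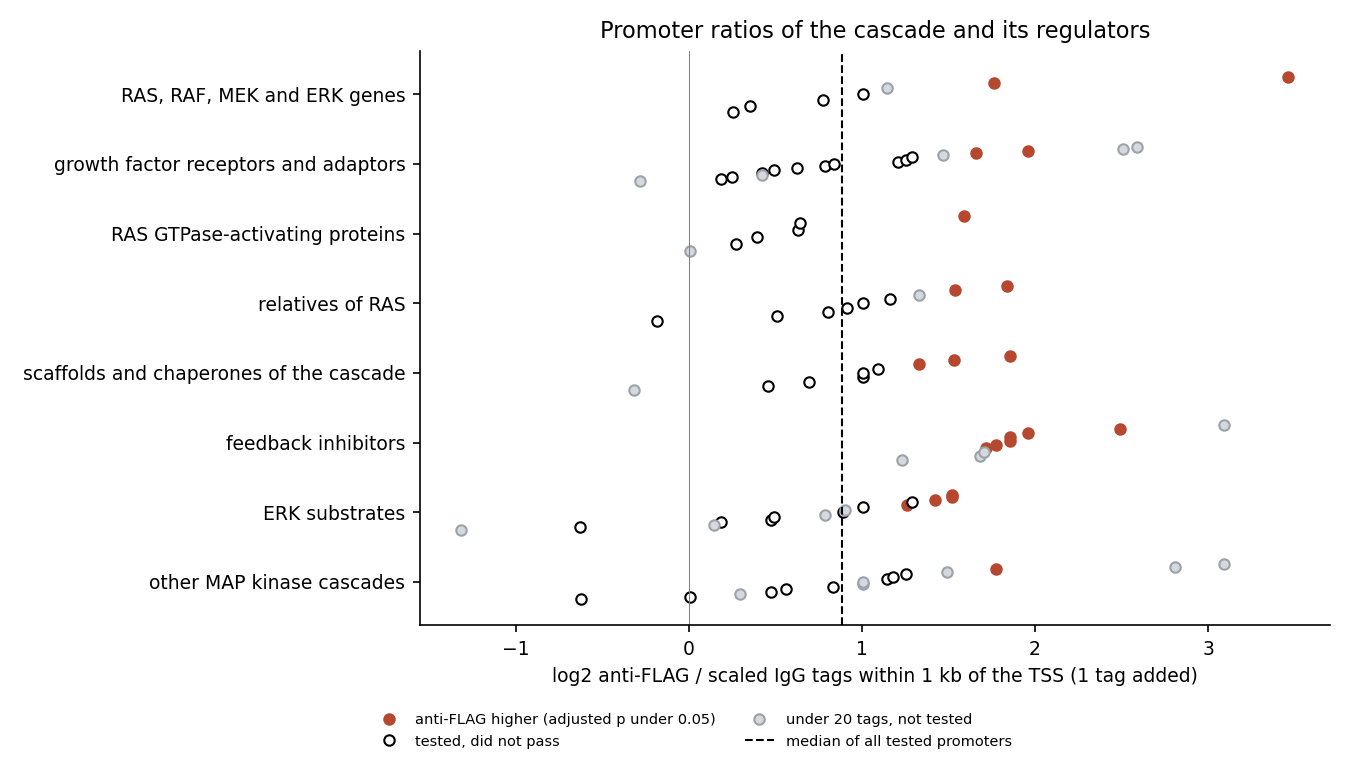
Log2 ratio of anti-FLAG to scaled IgG tags within 1 kb of the TSS for each gene of the cascade (top row, Araf at its coding start) and of the 7 lists, with filled red points for promoters that passed, open points for those that did not and grey points for those under 20 tags. The dashed line is the median of all tested promoters, 0.88, and the 10 feedback inhibitors all lie to its right.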

How the data were processed

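The authors deposited tag positions with strand. Per the labels' protocols, formaldehyde-fixed chromatin was sonicated, and the ChIP DNA was prepared with an Illumina kit. For the aligner, build and filters, nothing is given in the labels or headers read here. The deposited score is 512 on every line and was ignored. Every tag was 36 bp long with 0 duplicates of position and strand in either library. All chromosome names are in NCBIM37, and all but 4 anti-FLAG and 2 IgG tags lay within its chromosome lengths, so this build and its GENCODE annotation were used for coordinates and sequence. Sequences are from the NCBIM37 genome, and 1 upstream sequence is not reported here.

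Groups followed the antibody in the labels. Python 3.11.15, NumPy 2.4.6, SciPy 1.17.1, pandas 2.3.3 and Matplotlib 3.10.9 were used on the 19 autosomes and X. Tags were moved 72 bp downstream, and opposite strands coincided most at 157 bp in the anti-FLAG and 131 bp in the IgG library. The scaling factor for IgG counts was 0.994, from the library totals. Promoters with 20 or more tags, anti-FLAG and IgG summed, entered a 2-sided exact binomial test, adjusted by Benjamini-Hochberg at 0.05 over all of them. A region joined overlapping 500-bp windows (step 250 bp) that had 10 or more anti-FLAG tags, a 2-fold excess and a one-sided Poisson p under 1e-05 over the largest of 4 IgG backgrounds. GC strata were 2 points wide, and windows above the last stratum with 200 windows took its ratio.

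The members, the lists and the rule for named genes were chosen with earlier results of these data known. Named were the 7 members, gene starts within 2 kb, the gene of smallest p per list, and the 3 promoters nearest to the top member by Euclidean distance of log2 counts.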

Additional observations from a re-analysis of the deposited data

How the results depend on the processing

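The counts within 1 kb were 2 members and 3226 promoters higher in anti-FLAG. With 500 bp either side of the TSS they were 1 and 1886, and with 2.5 kb they were 1 and 2131. With the GC correction by summed tags they were 1 and 343, and 1 and 340 at the coding starts. The coding starts, the correction by mean ratios and the joint settings were chosen after seeing the data. With mean ratios the counts were 0 and 37, and 0 and 38 at the coding starts. Within 500 bp 1 member was higher. This count was 0 with tags not moved, 0 with the GC correction, 0 with it at the coding starts, 0 with it and at least 10 tags, 3 with at least 10 tags and 3 with at least 10 tags at the coding starts. The count of members overlapping a region, 1, was 0 at a p threshold of 1e-07 and 0 with the GC correction. Map2k1 lost its call with 2.5 kb (log2 ratio 0.76) and with either GC correction (1.32 and 0.91). Direction turned for Map2k2, to -0.27 with the GC correction and -0.69 by mean ratios, for Araf at its coding start, to -0.0492 by mean ratios, and for Hras1 within 500 bp, to -1.10 with the GC correction, where it had 2 tags in each library. Scaling by background bins (0.909) gave a median of 1.00 over tested promoters, against 0.88 with library totals, and left 2 members higher. The lower tag minimums, the smaller added count, unmoved tags and the transcript start with most tags also left 2 members higher within 1 kb. Counts of 4 to 34 tags per promoter limit all of these values. No paired analysis was possible because each antibody had 1 library.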

Other observations

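Within 10 kb of the 7 genes the second called region lay beyond the 3' end of Araf. It spanned chromosome X from 20445001 to 20445500, inside an intron of Syn1, the gene of the synaptic vesicle protein synapsin I, which is transcribed from the opposite strand, and its centre lay 2042 bp away from the start of Timp1. Timp1, an inhibitor of matrix metalloproteinases, lies within Syn1. The strongest window held 16 anti-FLAG and 3 IgG tags, 5.36 times the local IgG background (one-sided exact Poisson p = 1.15e-07), and the region was called with the GC correction but not at a p threshold of 1e-07. Its GC content was 46.6%.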
